A study of Homo sapiens with 6 samples.

Results

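The snoRNA host noncoding genes are long noncoding RNA genes whose introns carry small nucleolar RNAs. They were taken by symbol as every gene named SNHG with a number, together with GAS5, ZFAS1, DANCR and EPB41L4A-AS1, which gave 30 genes of the 30618 in the count data. MEG3 belongs to the same rule and is not analysed here. All 30 were typed as lncRNA, 29 passed the filter on low counts, and SNHG31 did not, with 4, 2 and 4 counts in the control and 5, 8 and 3 counts in the knockdown libraries. The RNA came from ARPE-19, an established human line derived from retinal pigment epithelium, and all cells were kept in 50 mM glucose as a model of diabetic retinopathy. The 3 NC libraries received a negative control siRNA and the 3 siEIF1 libraries an siRNA against EIF1, a factor that helps the ribosome choose its start codon. The comparison asks how the transcriptome differs when EIF1 is depleted under high glucose, and no library without high glucose was analysed here.

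A snoRNA host gene is transcribed and spliced like a messenger RNA precursor, and the snoRNA is trimmed out of the excised intron. Box C/D snoRNAs guide 2′-O-methylation and box H/ACA snoRNAs guide pseudouridylation, mainly of ribosomal RNA, while scaRNAs guide the same modifications of spliceosomal RNAs in Cajal bodies. The spliced exons of many of these hosts are exported, start with a 5′ terminal oligopyrimidine (TOP) tract as ribosomal protein mRNAs do, are bound by ribosomes on short reading frames and are cleared by nonsense-mediated decay. The libraries were built from polyadenylated RNA, so they measured the spliced hosts and largely miss the snoRNAs themselves. By the RefSeq gene table, 12 of the tested hosts carry only C/D snoRNAs, 10 only H/ACA snoRNAs, 3 both kinds and 4 a scaRNA.

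The bases around the annotated start are shown for the 10 most abundant tested members by mean count, because the first bases decide whether a host has a TOP start. Each run holds 30 bases of GRCh38.p14 from RefSeq, 5′ to 3′ on the transcribed strand, with 15 bases before the start and the first transcribed base at position 16. Capitals mark the unbroken run of C and T that covers the start.
SNHG29: cccctccttttgtgaggattgggatattcc
GAS5: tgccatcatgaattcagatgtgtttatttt
ZFAS1: aggaagccattcgTTCTTTCgcgtctgcgg
SNHG8: aaggcctcggCCTTTCacattcgggaagcg
SNHG16: cgcaggggcggtctcgcgttcttttcgagg
SNHG7: gcttcccttctcgTCCTCTgcgtgcgccgg
SNHG1: ccggggagattcgTTCTCatttttctactg
SNHG3: cctcagtgagtttctgattctctaactgcg
EPB41L4A-AS1: tggactcatgaaTTCTgtcgggtcccaaaa
SNHG32: ctcgccattttagTTCTTTTTgcgaagtgg
The windows of the lower members lie at chr1:173869031-173869060 on the minus strand for GAS5, chr20:49278627-49278656 on the plus strand for ZFAS1, chr11:62855871-62855900 on the minus strand for SNHG1, chr5:112160511-112160540 on the plus strand for EPB41L4A-AS1 and chr6:31834901-31834930 on the plus strand for SNHG32. Among these 10, ZFAS1 and SNHG32 began with C followed by at least 4 pyrimidines, read on the transcribed strand at the annotated start only. Of the 25 tested members with an entry in the RefSeq table, 7 began this way (28%), against 5.37% of 11225 tested genes and 4.04% of all 27305 starts in the table. The same letters were found at 43 of 63 ribosomal protein starts (68.3%). These counts depend on the annotated start, which can differ from the start used in these cells. The RefSeq windows of GAS5, SNHG3 and SNHG14 lie wholly outside the GENCODE 44 bounds of these genes. That of GAS5 lies upstream of its GENCODE start at 173867989. The bases printed for GAS5 therefore do not show whether it has a TOP start at the GENCODE position. Among the 7 matching members, the windows of SNHG32, SNHG12 and SNHG19 lie downstream of their GENCODE starts, and that of SNHG4 upstream. For SNHG32 that GENCODE start is at 31834608. The match of these members holds for the RefSeq start only.

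The libraries held between 26499929 and 31431479 counts. EIF1 had 34666, 35700 and 34695 counts in NC and 3377, 3025 and 3078 in siEIF1, a fitted log2 fold change of -3.58. Of 8 retinal pigment epithelium markers, KRT8 (106.49 to 135.67 FPKM), KRT18, BEST1 and MITF were present in every library, RLBP1, PMEL and TYR were at 0.73 FPKM or less, and RPE65 had no row. PECAM1, VWF, CDH5, RCVRN and GFAP, which mark vessel, photoreceptor and glial cells, were at 0.05 FPKM or less, and PDE6B lay between 1.78 and 2.54 FPKM.

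Of the 29 tested members, 8 were lower in siEIF1 at an adjusted p under 0.05 (27.6%), where 10.4% of all 16749 tested genes were lower. These 8 were SNHG1, SNHG32, GAS5, SNHG15, ZFAS1, EPB41L4A-AS1, SNHG9 and SNHG26, and they stood at between 67.7% and 84.9% of their NC level. No member was higher in the edgeR test or in DESeq2, where 10.2% of all genes were higher by edgeR, and SNHG18 alone was above NC at an unadjusted p under 0.05, as 16.3% of all genes were. The median log2 fold change of the tested members was -0.126, beside 0.0033 over all tested genes, and 22 members (75.9%) were below 0, beside 49.4% of all genes. No member passed a fold change above 2 or below 0.5, a limit that 1.71% of all genes passed together with the adjusted p. The members are not replicates of a condition, so these shares describe them and are not a test.

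**Figure D1:**
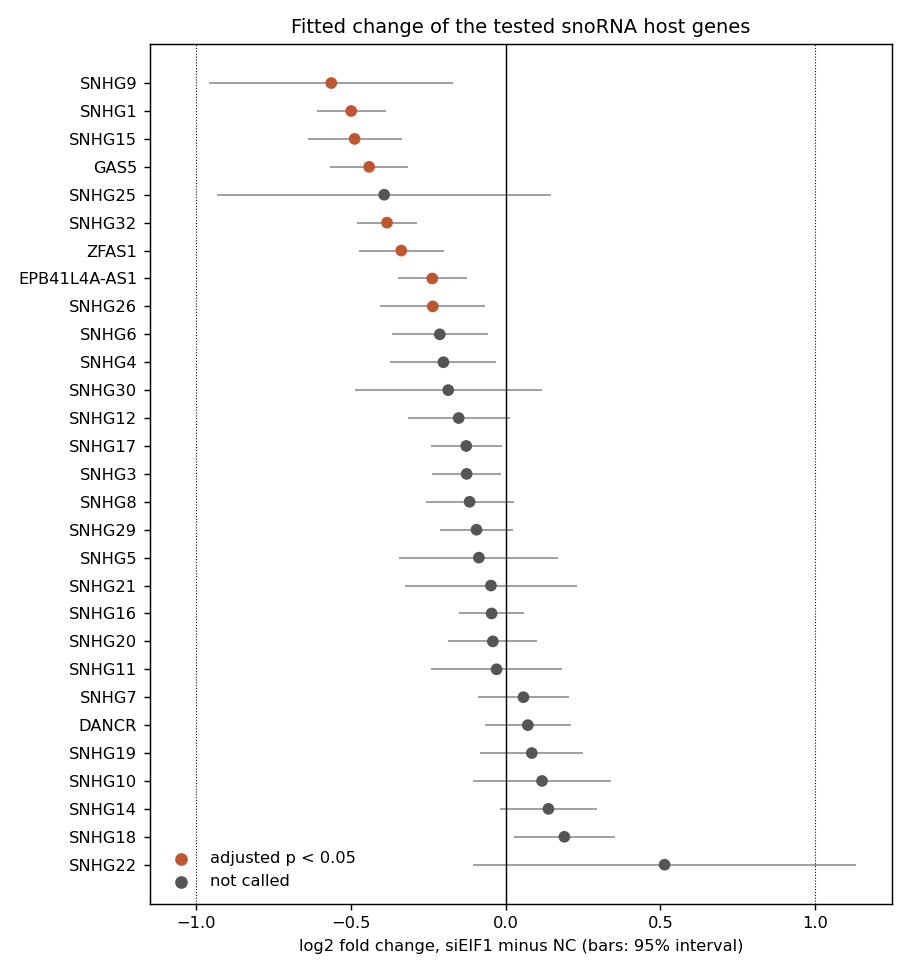
Fitted log2 fold change, siEIF1 minus NC, of the 29 tested host genes (x axis), ordered from lowest to highest (y axis). Points are estimates, bars are 95% intervals, orange points have an adjusted p under 0.05, and dotted lines mark 2-fold changes. The 8 orange points all lie left of 0, and 22 of the 29 points do.

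In each siEIF1 library the median log2 ratio of the members to their NC mean was below 0, at -0.0984, -0.094 and -0.19. The members together took 0.498%, 0.478% and 0.477% of all counts in NC and 0.421%, 0.421% and 0.392% in siEIF1, so the groups did not overlap. GAS5, SNHG29 and ZFAS1 made up 66.1% to 67.7% of the member counts in NC and 64.9% to 65.7% in siEIF1. The summed share therefore rests mostly on 3 genes. These are bulk libraries, in which fewer cells with a transcript and less of it per cell cannot be told apart.

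GAS5 is the host of 11 snoRNAs by RefSeq, nearly all of the C/D kind, and is known as a transcript that accumulates in growth-arrested cells. It lies on chromosome 1 from 173858559 to 173868882 (GENCODE 44, GRCh38, minus strand). Its counts were 29894, 29153 and 29848 in NC and 25485, 23512 and 21872 in siEIF1, or 1125, 1024 and 1056 against 820, 808 and 732 CPM, the count scaled to a common library size after TMM normalization. All 3 siEIF1 libraries were below all 3 NC libraries, and the third was the lowest. The log2 fold change was -0.44 (SE 0.0584, adjusted p = 0.000163), or 73.7% of NC. GAS5 made up 21.6% to 22.7% of the member counts in NC and 18.7% to 19.3% in siEIF1.

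SNHG1, on chromosome 11, carries 8 C/D snoRNAs and had the smallest adjusted p of the members. It had 4316, 4217 and 4243 counts in NC and 3473, 3190 and 3120 in siEIF1, or 162, 148 and 150 against 112, 110 and 104 CPM. The groups were well apart, with a log2 fold change of -0.50 (SE 0.0516, adjusted p = 2.11e-05). SNHG15, host of SNORA9 on chromosome 7, was similar in size of change, with 53.4, 46.8 and 46.4 CPM in NC and 36.2, 36.1 and 32.1 in siEIF1 (log2 fold change -0.49, SE 0.0704, adjusted p = 0.000316). Neither gene overlaps another annotated protein-coding or lncRNA gene.

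ZFAS1, the antisense partner at the start of ZNFX1, carries SNORD12, SNORD12B and SNORD12C. Its counts of 15461, 14926 and 15226 in NC stood against 13651, 13556 and 11843 in siEIF1, or 582, 524 and 539 against 439, 466 and 397 CPM. The groups did not overlap, and the log2 fold change was -0.34 (SE 0.0635, adjusted p = 0.00214). SNHG32, host of SNORD48 and SNORD52 in the major histocompatibility region of chromosome 6, had the smallest SE of the 8, with 119, 122 and 119 CPM in NC and 94.4, 90.9 and 90.8 in siEIF1. Its log2 fold change was -0.38 (SE 0.0453, adjusted p = 6.59e-05). ZFAS1 and SNHG32 are the 2 lower members whose RefSeq starts carry the C and pyrimidine run printed above. The GENCODE start of SNHG32 lies outside its printed window.

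EPB41L4A-AS1, host of SNORA13 on chromosome 5, fell less. It had 3009, 3451 and 3173 counts in NC and 3073, 2965 and 2789 in siEIF1, which overlap as raw counts but not after scaling (113, 121 and 112 against 98.9, 102 and 93.4 CPM). The log2 fold change was -0.24 (SE 0.052, adjusted p = 0.00579). The calls of GAS5, SNHG1, SNHG15, SNHG32, ZFAS1 and EPB41L4A-AS1 held under all 14 alternative settings.

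The other 2 calls were near the threshold. SNHG9, a short host of SNORA78, had 94, 88 and 75 counts in NC and 65, 70 and 53 in siEIF1, and its log2 fold change of -0.56 was the lowest among the members but with an SE of 0.183 (adjusted p = 0.0439). It missed the threshold in DESeq2 (adjusted p = 0.0665) and when any single library other than the third NC library was left out (adjusted p = 0.0516 to 0.172, the highest without the first NC library). SNHG26, host of SNORD93, had 16.4, 14.7 and 14.3 CPM in NC and 12.8, 12.9 and 12.8 in siEIF1 (log2 fold change -0.24, adjusted p = 0.0495). Its adjusted p ran from 0.0414 to 0.18 over the alternatives, and the call was lost in 10 of 14, including without each library in turn.

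**Figure D2:**
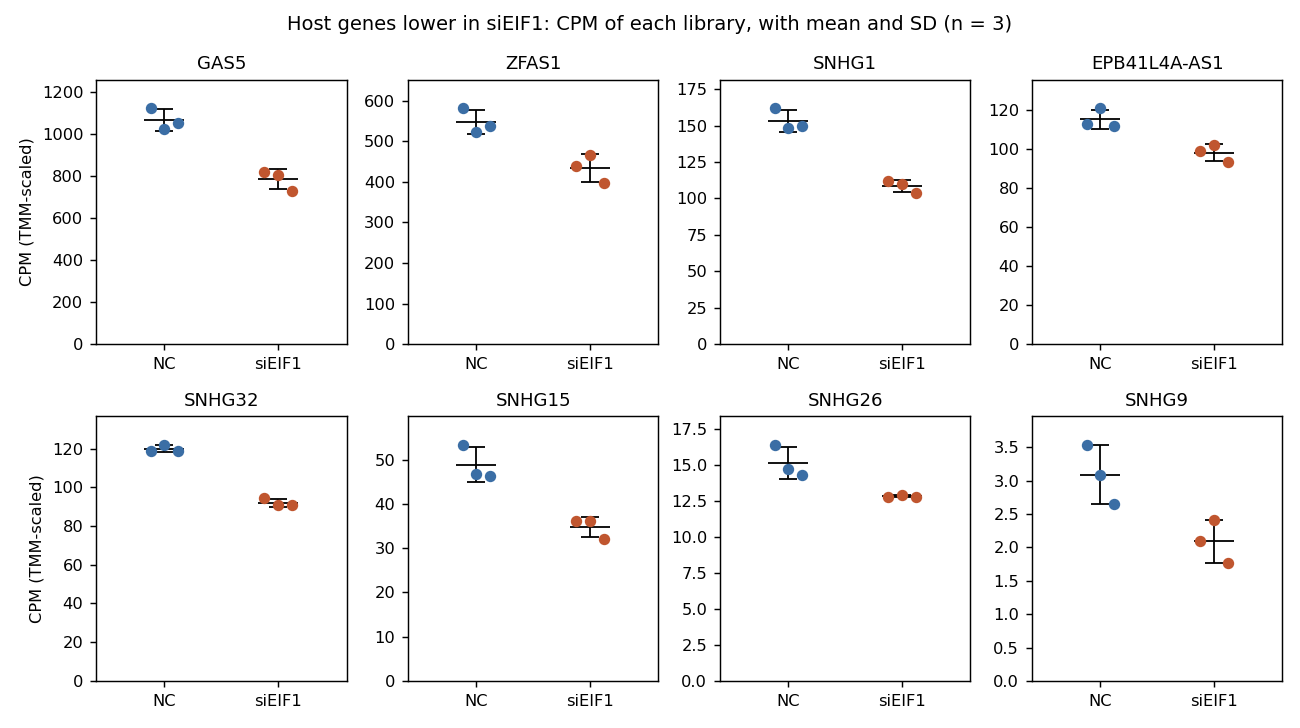
TMM-scaled CPM (y axis, from 0) of each NC and siEIF1 library for the 8 lower host genes, one panel a gene. Points are libraries, the long bar is the mean and the whiskers are the SD of 3 libraries. In every panel the 3 siEIF1 libraries lie below the 3 NC libraries.

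Counting members whose 3 siEIF1 libraries all lay below the 3 NC libraries in CPM gave 13 (44.8%), where 18.9% of all tested genes did so. SNHG18 was the 1 member with all siEIF1 libraries above NC, where 18.2% of all genes were. The 5 members below NC without overlap that did not pass the test were SNHG29, SNHG6, SNHG17, SNHG4 and SNHG25. SNHG6, a C/D host on chromosome 8, came closest, with 84.3, 77.4 and 74 CPM in NC and 69.8, 73.3 and 60.2 in siEIF1 (log2 fold change -0.21, SE 0.0717, adjusted p = 0.0517), and it passed under 6 alternatives. SNHG4 had -0.20 (adjusted p = 0.094; -0.27 and past the threshold without the third NC library) and SNHG17, host of 4 SNORA71 copies, -0.13 (adjusted p = 0.114). SNHG25 had only 35, 36 and 36 counts in NC and 33, 34 and 21 in siEIF1, so its -0.39 (95% interval -0.93 to 0.15) rests on little.

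SNHG29, host of SNORD49A, SNORD49B and SNORD65 on chromosome 17, was the member with the most counts. It had 43891, 45115 and 43975 counts in NC and 47536, 45048 and 42138 in siEIF1, or 1652, 1585 and 1556 against 1530, 1549 and 1411 CPM. Its log2 fold change was -0.094, with a 95% interval of -0.21 to 0.02 that does not reach the estimate of GAS5. The ratio of GAS5 to SNHG29 counts, which needs no library scaling, was 0.681, 0.646 and 0.679 in NC and 0.536, 0.522 and 0.519 in siEIF1. That of SNHG1 to SNHG3 counts was 1.23, 1.13 and 1.23 in NC and 0.906, 0.934 and 0.927 in siEIF1. Both pairs were chosen after their values were seen and were not tested.

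Per length, SNHG29 (182 ± 4.91 FPKM, SD, n = 3) and GAS5 (181 ± 9.09 FPKM) led in NC and could not be told apart, while in siEIF1 they stood at 168 ± 5.33 and 131 ± 6.08 FPKM. SNHG19, a short C/D host, came next with 110 FPKM in NC. SNHG32 (54.6 FPKM), ZFAS1 (54.1 FPKM) and SNHG6 (51.6 FPKM) followed within their spread. SNHG1 and SNHG8 were both at 31.7 FPKM in NC and at 22.1 and 28.8 FPKM in siEIF1. The lowest tested member was SNHG14 at 0.327 FPKM.

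**Figure D3:**
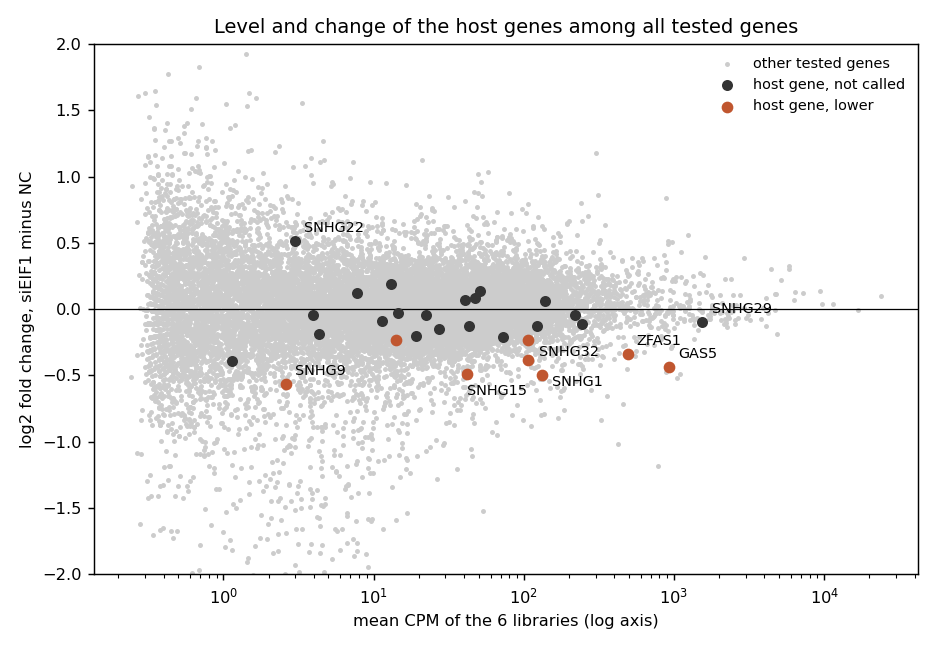
Mean CPM of the 6 libraries (x axis, log scale) against the fitted log2 fold change, siEIF1 minus NC (y axis), for all tested genes (grey) and the 29 tested host genes (orange where lower, black otherwise). The 15 tested genes beyond 2 on either side are not drawn. GAS5, ZFAS1, SNHG1 and SNHG32 lie at high counts and below 0, and SNHG29, the most abundant host, lies near 0.

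Of the 21 members that were not called, 19 had a 95% interval within 0.5 of 0 on the log2 scale, and SNHG22 and SNHG25 did not. Among the H/ACA hosts, DANCR, known for keeping progenitor cells undifferentiated, had 39.6, 39.8 and 39.1 CPM in NC and 45.6, 39.9 and 39 in siEIF1 (log2 fold change 0.072, 95% interval -0.07 to 0.21). SNHG7 had 0.057 (-0.09 to 0.20), SNHG8 -0.12 (-0.26 to 0.03), SNHG3 -0.13 (-0.24 to -0.01) and SNHG11 -0.029 (-0.24 to 0.18). Among the C/D hosts, SNHG16 had -0.045 (-0.15 to 0.06), SNHG19 0.084 (-0.08 to 0.25), SNHG5 -0.086 (-0.34 to 0.17) and SNHG30 -0.19 (-0.49 to 0.12). SNHG14, the long imprinted host of the SNORD115 and SNORD116 clusters on chromosome 15, had 0.14 (-0.02 to 0.30). SNHG14 passed the threshold without the first siEIF1 library (0.22), and SNHG19 without the third (0.18). SNHG12, which carries both kinds, had -0.15 (-0.32 to 0.01).

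SNHG18, host of SNORD123, had 313, 356 and 352 counts in NC and 443, 412 and 403 in siEIF1, or 11.8, 12.5 and 12.5 against 14.3, 14.2 and 13.5 CPM. All siEIF1 libraries were above NC, but the log2 fold change of 0.19 had an adjusted p of 0.0963. SNHG22, a scaRNA host, had the highest estimate, 0.51 (95% interval -0.11 to 1.13), from 52, 70 and 85 counts in NC and 64, 93 and 161 in siEIF1. The third siEIF1 library alone lay clearly above the rest, and without it the estimate was 0.078 (adjusted p = 0.859), while without the first it was 0.79 (adjusted p = 0.0237). The other scaRNA hosts were SNHG10 at 0.12 (-0.11 to 0.34), SNHG20 at -0.041 (-0.19 to 0.10) and SNHG21 at -0.047 (-0.33 to 0.23).

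By the kind of snoRNA carried, 4 of 12 C/D hosts were lower (median log2 fold change -0.14), 3 of 10 H/ACA hosts (median -0.127), 1 of the 3 with both kinds (median -0.393) and 0 of 4 scaRNA hosts (median 0.0381). Of all 16749 tested genes, 10.4% were lower. Of the 16 members with a mean count of at least 1000, 6 were lower, beside 688 of the 5297 tested genes at that count (13%). By start, 2 of the 7 members with C and a following run of 4 pyrimidines were lower (median -0.152), and 4 of the 18 without it (median -0.0708). SNHG15 and SNHG9, both lower, had no RefSeq start and are in neither class. GAS5, SNHG3 and SNHG14 were placed among the 18 by starts outside their GENCODE bounds. SNHG32, SNHG12, SNHG19 and SNHG4 were placed among the 7 by windows that leave out their GENCODE starts. The share of 10.4% over all tested genes stands beside the start classes as well. All these classes hold few genes, and no difference between them was tested.

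The snoRNAs inside the members were barely covered. Of 143 annotated in GENCODE, 12 had a row and 2 were tested. SNHG14 alone holds 84 of the 143. GENCODE 44 places no snoRNA inside GAS5, so the 11 that RefSeq places there are not part of this count. SNORD104, inside SNHG25, had 38, 48 and 50 counts in NC and 56, 43 and 44 in siEIF1 (log2 fold change -0.039, adjusted p = 0.922). SNORA73B, inside SNHG3, had 35, 54 and 32 against 27, 44 and 37 (-0.27, adjusted p = 0.544). The other 10 held 54 counts or fewer in all 6 libraries together. The libraries say nothing on the amount of the mature snoRNAs.

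Several members share ground with other genes, and the strand setting of the counting is not given in the sources used here. The tested members overlapped an annotated gene on the opposite strand in 16 cases and on the same strand in 9, and 9 overlapped none, among them SNHG1, SNHG15, SNHG26 and SNHG9. SNHG32 shares its strand and some of its bounds with ENSG00000285565 (XXbac-BPG254B15.11 in the files), a lncRNA with a mean count of 9266 that was itself lower (log2 fold change -0.42, adjusted p = 0.000182). SNHG5 shares its strand with ENSG00000271793, which had a mean count of 8414 and was lower (-0.24, adjusted p = 0.00545), so the SNHG5 counts are uncertain. Opposite ZFAS1, ZNFX1 had 0.026 (adjusted p = 0.881). Opposite GAS5, ZBTB37 had -0.011 and GAS5-AS1 -0.51 (adjusted p = 0.183). Opposite EPB41L4A-AS1, EPB41L4A had 0.19 (adjusted p = 0.152). Counts of these overlapping pairs are uncertain, and how far one enters the other was not tested.

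Of 8 protein-coding genes that start within 1000 bases of a member on the other strand, 2 were lower (25%) and 1 higher (12.5%). Of all tested genes, 10.4% were lower and 10.2% higher. GLRX5, a mitochondrial glutaredoxin, fell by 0.52 on the log2 scale (adjusted p = 1.64e-05) beside SNHG10, which had 0.12. BARD1, the partner of BRCA1, fell by 0.97 (adjusted p = 0.00111) beside the untested SNHG31. TRAF7 rose by 0.26 (adjusted p = 0.00176) beside SNHG19, which had 0.084. RPS2, which starts 69 bases from SNHG9, had 0.0054 (adjusted p = 0.966), SEMA5A beside SNHG18 had -0.19 (adjusted p = 0.0783) and ACAA2 beside SNHG22 had 0.15 (adjusted p = 0.0689). The lower hosts with such a neighbour, GAS5, ZFAS1 and SNHG9, thus stood beside genes that did not pass the test.

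Lists of related genes were read against the same background, 10.4% of all tested genes lower and 10.2% higher. None of 79 cytosolic ribosomal protein genes, the best known TOP mRNAs, was lower or higher by edgeR, 3 had an unadjusted p under 0.05, and 1 was lower by DESeq2 (RPL23). Their log2 fold changes ran from -0.16 to 0.13 with a median of -0.0266, and 59 of the 79 (74.7%) were below 0, a share near that of the host genes. RPL23 had the smallest p (-0.16, adjusted p = 0.0938), followed by RPL26 (-0.15, adjusted p = 0.105) and RPL39 (0.13, adjusted p = 0.146). Without the third siEIF1 library 3 were higher, and without the second 1 was lower (RPL23).

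Of 18 snoRNP core and assembly proteins, which bind the snoRNAs and stabilise them, 7 were lower (38.9%) and 1 higher (5.56%), with a median of -0.146. Of all tested genes, 10.4% were lower and 10.2% higher. NOP58 (-0.36, adjusted p = 0.00331) and NOP56 (-0.29, adjusted p = 0.00171) are core proteins of C/D particles and were lower, as was FBL, the methyltransferase (-0.17, adjusted p = 0.0288). DKC1, the pseudouridine synthase of H/ACA particles, was lower too (-0.21, adjusted p = 0.0249). RPAP3, a chaperone subunit for their assembly, was lower as well (-0.33, adjusted p = 0.00492), with RUVBL1 and ZNHIT6 completing the 7. The calls of FBL, DKC1, RUVBL1 and ZNHIT6 were lost in 4 to 6 of 14 alternatives, mostly without single libraries. Without the first NC or the second siEIF1 library 3 of the 18 were lower, and without the third NC library 4. NOLC1, a chaperone that moves with snoRNPs through the nucleolus and Cajal bodies, was the 1 that rose, from 103 ± 7.07 to 144 ± 6.05 CPM (SD, n = 3, log2 fold change 0.49, adjusted p = 5.84e-05).

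Of 21 factors of nonsense-mediated decay and the exon junction complex, 4 were lower (19%) and 1 higher (4.76%), with a median of -0.0575. Of all tested genes, 10.4% were lower and 10.2% higher. The lower genes were MAGOHB (-0.50, adjusted p = 0.0014) and MAGOH (-0.27, adjusted p = 0.0138) of the exon junction complex, UPF3B (-0.31, adjusted p = 0.0291) and SMG5 (-0.17, adjusted p = 0.03). SMG6, the endonuclease of the pathway, was higher (0.24, adjusted p = 0.0408), and UPF1, its central helicase, had 0.00071 (adjusted p = 0.995). The calls of UPF3B, SMG5 and SMG6 were lost in 5, 4 and 6 of 14 alternatives (adjusted p up to 0.131, 0.119 and 0.173), and that of MAGOH without the first NC library (adjusted p = 0.0617). Without the first NC, the third NC or the second siEIF1 library 2 of the 21 were lower, and the count of higher factors was 0 without the second NC, the second siEIF1 or the third siEIF1 library and 2 without the first siEIF1 library.

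Protein-coding genes can host snoRNAs too. Of 238 tested, 35 were lower (14.7%) and 24 higher (10.1%), with a median of -0.0251. These include 28 of the ribosomal protein genes above. The 210 others held all 35 lower and 24 higher genes, with a median of -0.0243. EIF5, a translation initiation factor, fell by 0.59 on the log2 scale (adjusted p = 3.35e-06), DEGS1, a sphingolipid desaturase, by 0.64 (adjusted p = 5.39e-06), and BTBD11 rose by 0.70 (adjusted p = 6.66e-06). TRPM2, a cation channel, was the 1 past the 2-fold limit (1.20, adjusted p = 0.00898), from a mean count of 25.7, and it missed the adjusted p without the third NC library (1.02). Without that library or the second siEIF1 library 14 were higher. Of 11 other lncRNA hosts tested, 3 were lower (27.3%) and 2 higher (18.2%), where 10.4% and 10.2% of all tested genes were. Some overlap a member on the same strand, so they are not separate loci. These are XXbac-BPG254B15.11 with SNHG32, LINC01618 with DANCR and another of the 11 with SNHG21. XXbac-BPG254B15.11, named above, and UBA6-AS1 (-0.19, adjusted p = 0.0326) were lower, as was MIR31HG (-0.35, adjusted p = 0.0485), while RAB33B-AS1 (0.62, adjusted p = 0.0231) and LINC01618 (0.83, adjusted p = 0.041) were higher. Of these, the call of XXbac-BPG254B15.11 held under all 14 alternatives. UBA6-AS1 lost its call in 10 of them, including DESeq2 and each library left out (adjusted p up to 0.132), MIR31HG in 8 (up to 0.212), LINC01618 in 7 (up to 0.188) and RAB33B-AS1 in 5 (up to 0.0977). Without the second NC library 2 of the 11 were lower, and without any other single library 1 was, while 0 to 2 were higher.

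**Figure D4:**
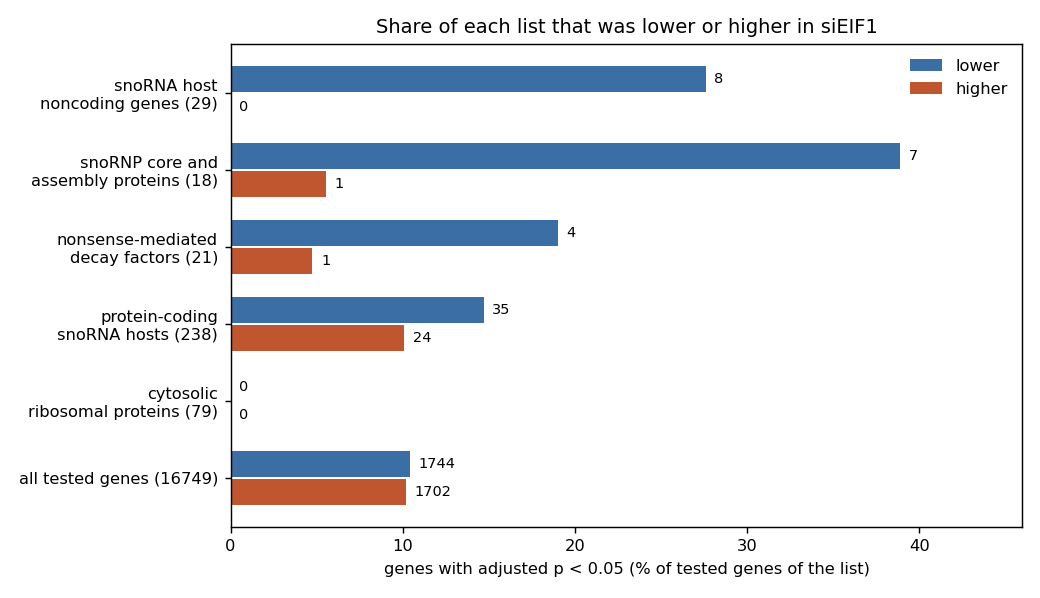
Share of the tested genes of each list that had an adjusted p under 0.05 (x axis, percent), split into lower (blue) and higher (orange), with the number of genes at each bar and the number tested in brackets. The host genes (8 lower, 0 higher) and the snoRNP proteins (7 lower, 1 higher) have more genes on the lower side, and the ribosomal proteins have none on either.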

How the data were processed

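The authors purified polyadenylated RNA, built directional libraries, sequenced 150-base read pairs, trimmed with FASTX-Toolkit and aligned to GRCh38 with HISAT2. The authors deposited raw counts per gene and FPKM values (fragments scaled by gene length and mapped fragments); the counting program, its strand setting and the annotation release are not given in the sources used here. Each column matched 1 library by name, and 0 columns were left unmatched.

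Counts were tested with edgeR 4.0.16 in R 4.3.3 (filterByExpr, TMM, quasi-likelihood test, Benjamini-Hochberg adjustment over all 16749 tested genes, no covariate), with adjusted p under 0.05 as the call, and the study's limits of fold change above 2 or below 0.5 as a second. Standard errors come from the F statistic and 95% intervals from its degrees of freedom. Alternatives were DESeq2 1.42.0 (the study's tool), limma 3.58.1 on log2(FPKM + 1) and log2(FPKM + 0.1), other scalings and filters, a replicate block, and leaving out each library. FPKM served otherwise only to compare levels between genes. On simulated data of 16529 genes for this comparison, edgeR recovered 51 of 66 genes changed by 0.5 on the log2 scale, 65 of 66 changed by 1 and 68 of 68 changed by 2.

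Host relations, overlaps and neighbours came from GENCODE 44, in which 10 of 30 members have the same identifier version, and hosted snoRNAs per member and start windows from RefSeq. EIF1, every member, from each list the genes past both limits and up to 3 with the smallest p, and all divergent neighbours were named by rule. GAS5-AS1, EPB41L4A, ENSG00000271793, FBL, DKC1, RPAP3, RUVBL1, ZNHIT6, SMG5, SMG6, UPF1, MIR31HG and LINC01618 were named after their values were seen. Members and lists were chosen with earlier results of these data known. The study describes the replicates as biological; replicate pairs differed by more than counting noise (chi-square per degree of freedom 3.03 to 14.1), so each library counted as 1 sample. Some overlapping genes and markers are not reported here.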

Additional observations from a re-analysis of the deposited data

How the results depend on the processing

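The count of lower members was 8 in the main test, 9 with RLE scaling, 7 with DESeq2, 7 with limma on log2(FPKM + 1) and 6 to 8 without single libraries. The count of higher members was 0, and 1 with no filter on low counts (SNHG22) and 0 to 2 without single libraries. The shares over all tested genes, 10.4% lower and 10.2% higher, belong to the main test. Those under the alternatives are not reported here. The member and list counts under the alternatives therefore describe how stable the calls were, and cannot be set against all genes. Of 406 member values over 14 alternatives, 374 kept their direction and side of the threshold, 12 passed it, 16 lost it and 4 turned in sign, and 20 of 29 members were below 0 in every one. The 4 were SNHG11 (0.042 and 0.061 without the third NC or siEIF1 library), SNHG5 (0.031) and DANCR (-0.0024), both without the first siEIF1 library, and none of these genes was called. Over single libraries left out, SNHG11 ran from -0.093 to 0.061, SNHG5 from -0.24 to 0.031 and DANCR from -0.0024 to 0.11. Among uncalled neighbours and snoRNAs the sign turned for ZNFX1 (-0.0034 and -0.0056 with limma at pseudocounts 1 and 0.1, -0.088 to 0.14 without single libraries), RPS2 (-0.00087 with no filter, -0.017 with both limma settings, -0.037 to 0.061 without single libraries), ZBTB37 (-0.085 to 0.045) and SNORD104 (-0.14 to 0.023), the last 2 without single libraries.

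With limma on log2(FPKM + 1), 4 snoRNP proteins were lower, 23 protein-coding hosts were lower and 14 higher, 0 decay factors were higher, and 1 other lncRNA host was lower and 0 higher. With log2(FPKM + 0.1), 14 protein-coding hosts and 0 decay factors were higher, 1 other lncRNA host was lower and 0 higher, and 1 ribosomal protein was lower. DESeq2 gave 1 lower ribosomal protein, and 1 lower and 1 higher other lncRNA host, and no filter gave 1 lower ribosomal protein. Without single libraries, ribosomal proteins had 0 to 1 lower and 0 to 3 higher, snoRNP proteins 3 to 7 lower, decay factors 2 to 4 lower and 0 to 2 higher, protein-coding hosts 14 to 25 higher, other lncRNA hosts 1 to 2 lower and 0 to 2 higher, and divergent neighbours 1 to 2 higher. The cause was not tested.

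Libraries of NC and siEIF1 share replicate numbers, but the labels do not say that a number marks a shared batch. The deviations of same-numbered libraries correlated at 0.149, 0.095 and 0.128, and every library correlated best with its own number. That is a hint of pairing from the data and not the design. As the labels do not state it, the main test used no block. Whether the libraries are paired was not settled. With the replicate block, 10 members were lower (SNHG6 and SNHG3 added), 0 higher, 1 ribosomal protein was lower and 2 divergent neighbours were higher. The share of all tested genes called with the block is not reported here. SNHG9, SNHG22 and SNHG25, with 21 to 161 counts per library, had the largest standard errors of the tested members, 0.183 to 0.287. Precision did not simply follow the counts. SNHG22 had a larger SE (0.287) than SNHG25 (0.25), which had fewer counts. The smallest SE of all tested members, 0.0453, was that of SNHG32 and not of the most abundant ones.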
